A study of Mus musculus with 8 samples.

Results

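Sterol metabolism in the embryonic heart was described through 28 genes of cholesterol synthesis and sterol control, picked by name from the 49315 genes in the deposited count tables. They comprise 7 enzymes of the mevalonate pathway, 9 enzymes that lead through squalene to cholesterol, 5 genes of SREBP control, 5 genes of sterol transport, storage and efflux, and 2 liver X receptors. Hearts were dissected from C57BL/6 mouse embryos at embryonic day 9.5. Each embryo was sexed by genotyping the Y-linked gene Sry in its other tissues, and cardiac RNA was sequenced from 4 libraries labelled Male and 4 labelled Female. The labels name no allele and no treatment in either group, and the comparison addressed how the hearts of the sexes differ. Whether a library came from 1 heart or several, and from which litters, is not stated in the labels. The p-values therefore reflect only how much these libraries vary.

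Cholesterol is built from acetyl-CoA through mevalonate, isoprenoid diphosphates, squalene and lanosterol. When sterols are scarce in the endoplasmic reticulum, Scap carries the SREBP precursors to the Golgi, where they are cleaved into factors that switch on nearly every gene of the route, and the Insig proteins hold Scap back when sterols are plentiful. Liver X receptors respond to oxysterols and switch on efflux genes such as Abca1. An early embryo uses maternal cholesterol that reaches it across the yolk sac as well as its own synthesis, and needs cholesterol for membranes and for Hedgehog proteins, which carry a cholesterol group.

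SREBPs bind sterol elements in promoters, usually next to a CCAAT box or a GC box. Promoters of 5 genes are shown because the covariation described below turns on them: Hmgcs1, Cyp51 and Msmo1, whose levels moved together, Srebf2, which encodes an SREBP, and Idi1, which varied most. Sequences are from RefSeq (GRCm38.p6), 5′ to 3′ on the gene's strand, from 250 bases before RefSeq's start to 50 bases after it, a start that can differ from that of the deposited tables. Capitals mark TCACNCCA, a core of known sterol elements, and CCAAT, each on either strand.
Hmgcs1: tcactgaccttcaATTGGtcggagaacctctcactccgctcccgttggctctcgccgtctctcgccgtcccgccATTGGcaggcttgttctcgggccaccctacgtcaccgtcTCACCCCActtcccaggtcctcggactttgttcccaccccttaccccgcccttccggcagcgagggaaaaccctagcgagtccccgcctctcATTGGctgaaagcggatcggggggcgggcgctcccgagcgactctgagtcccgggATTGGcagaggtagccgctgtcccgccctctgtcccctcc
Cyp51: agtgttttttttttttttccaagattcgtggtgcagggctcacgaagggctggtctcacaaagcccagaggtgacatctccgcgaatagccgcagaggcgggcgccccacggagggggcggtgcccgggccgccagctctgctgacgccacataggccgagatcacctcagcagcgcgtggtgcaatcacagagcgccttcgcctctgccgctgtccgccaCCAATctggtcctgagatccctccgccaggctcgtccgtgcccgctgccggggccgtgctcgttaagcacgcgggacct
Msmo1: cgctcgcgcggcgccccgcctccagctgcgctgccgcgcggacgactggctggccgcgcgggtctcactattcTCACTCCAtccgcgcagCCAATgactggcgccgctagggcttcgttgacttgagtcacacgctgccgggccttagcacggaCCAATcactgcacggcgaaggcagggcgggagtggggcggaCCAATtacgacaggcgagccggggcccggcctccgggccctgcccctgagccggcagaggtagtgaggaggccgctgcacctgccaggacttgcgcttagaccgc
Srebf2: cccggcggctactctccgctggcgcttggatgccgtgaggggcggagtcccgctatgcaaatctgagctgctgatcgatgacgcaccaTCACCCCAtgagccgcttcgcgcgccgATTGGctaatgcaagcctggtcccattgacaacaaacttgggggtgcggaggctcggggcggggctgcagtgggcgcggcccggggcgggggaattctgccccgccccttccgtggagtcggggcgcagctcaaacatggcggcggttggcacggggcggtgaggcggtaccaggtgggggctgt
Idi1: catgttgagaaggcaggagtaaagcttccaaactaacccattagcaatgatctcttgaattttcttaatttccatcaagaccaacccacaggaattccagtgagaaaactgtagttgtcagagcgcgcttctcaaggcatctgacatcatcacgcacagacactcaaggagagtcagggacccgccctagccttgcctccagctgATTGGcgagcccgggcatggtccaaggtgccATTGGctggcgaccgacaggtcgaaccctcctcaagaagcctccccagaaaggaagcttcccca
The windows lie at chr13:119690101-119690400 for Hmgcs1 and chr5:4104648-4104947 for Cyp51, at chr8:64733529-64733828 for Msmo1, at chr15:82147019-82147318 for Srebf2 and at chr13:8885356-8885655 for Idi1. Cyp51 and Msmo1 are on the minus strand.

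The core stood once in each of 3 of these windows. Counted from RefSeq's start as 0, it began at -137 in Hmgcs1, -177 in Msmo1 and -162 in Srebf2. The Hmgcs1 window held 4 CCAAT boxes, that of Msmo1 3, that of Idi1 2, and those of Cyp51 and Srebf2 1 each. A promoter was found for 23 of the 28 genes, and not for Fdps, Fdft1, Sqle, Stard4 and Npc1. These 23 genes have 32 promoters in the table, and the core was in 3 of the 32, against 4.36% of all 32851 mouse promoters in the table. CCAAT was in 19 of 32, against 37.4% of all promoters, and GGGCGG, the GC box, in 24 of 32, against 35.7%. By gene, of 13 synthesis enzymes with a promoter, 12 held CCAAT, 12 held GGGCGG and 2 held the core. The shares of all promoters are not by gene, so they cannot be set against these counts. Both strands were searched, and none of these motifs contains another. A match describes letters, not binding, and its absence from a window says nothing about a factor.

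Total counts per library ran from 20105913 to 51134291, and 16377 genes had enough counts to be tested, all 28 sterol genes among them. Levels are given as CPM, counts relative to the library total after scaling with TMM factors. The 7 cardiomyocyte markers, Tnnt2 and Myl7 among them, were above 1 CPM in every library. Their summed level was 35129 to 54299 CPM in males and 32567 to 41185 CPM in females. The 7 markers of liver and yolk sac endoderm, tissues rich in sterol metabolism, summed to 3.67 to 35.1 CPM in males and 2.49 to 75.6 CPM in females. They were highest in Male 2 (35.1 CPM), Male 4 (18.7 CPM) and Female 1 (75.6 CPM). Of this list, Alb, Apob and Hnf4a had 0 counts in at least 1 library and reached at most 2.001 CPM. Foregut markers summed to 146 to 344 CPM in males and 149.9 to 284 CPM in females, most of it Krt8. Of this list, Epcam and Cldn6 were at 12.5 and 17.3 CPM in Male 2, and 18.3 and 23.0 CPM in Female 1. In the other libraries they lay between 1.05 and 7.95 CPM. The 5 endocardial and endothelial markers, all above 1 CPM in every library, summed to 279 to 376 CPM in males and 307 to 398 CPM in females. The 5 primitive erythroid markers summed to 5760.2 to 9022 CPM in males and 4302 to 11299.6 CPM in females, and 4 neural tube markers to 8.47 to 22.2 CPM in males and 7.604 to 18.4 CPM in females. The 5 macrophage markers summed to 4.37 to 5.30 CPM in males and 3.91 to 4.51 CPM in females. Of these, Csf1r and Cd68 were above 1 CPM in every library, while Adgre1 and Ptprc reached at most 0.201 CPM. Whether such cells contributed to the differences below was not tested. Over all genes with at least 10 counts in a pair of libraries, Male 2 and Female 4 stood apart from their groups. The chi-square per gene between libraries, which also grows with depth, was 112 to 173 for pairs with Male 2 and 7.29 to 17.2 among the other males, and 50.1 to 78.8 for pairs with Female 4 and 20.1 to 21.8 among the other females. In whole hearts, fewer cells of a type and less RNA per cell cannot be told apart.

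No sterol gene was called between the sexes. With edgeR's quasi-likelihood test and Benjamini-Hochberg adjustment over 16377 genes, 0 of 28 had an adjusted p below 0.05, against 6 of all genes tested (0.0366%). At an unadjusted p below 0.05 the count was again 0 of 28, against 367 of all genes (2.24%), and DESeq2 and limma-voom gave 0 of 28 at either threshold. The male and female libraries overlapped for all 28 genes, whereas they did not overlap for 366 of all genes tested (2.23%). Most of the sterol genes nonetheless had a slightly lower mean in males: 24 of 28 (85.7%), against 47.1% of all genes tested. Their median log2 fold change (male over female) was -0.083, against 0.011 for all genes tested. When 1 library was left out, 19 to 23 of 28 were lower in males. The lowest count came without Male 2, without Female 2 or without Female 4, and the share of all genes lower in males was then 49.8%, 47.6% and 44.7%. The genes vary together, as described below, so this count does not stand for 28 independent measurements.

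**Figure D1:**
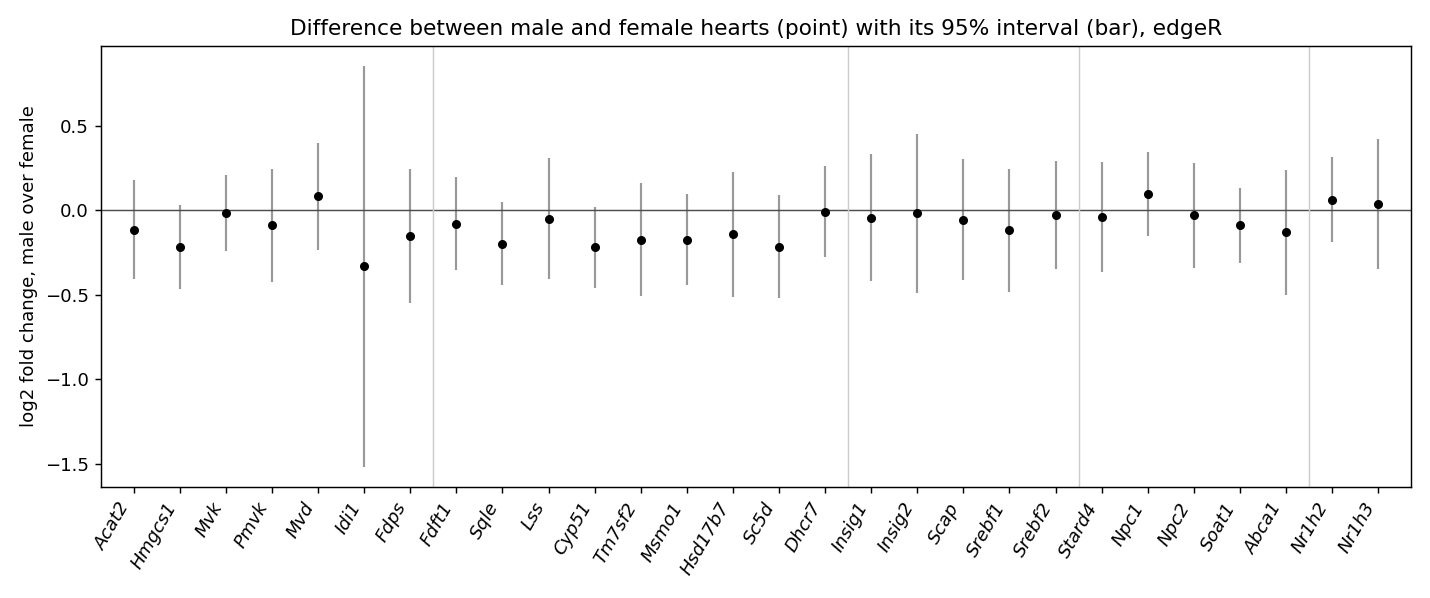
Log2 fold change of male over female for each of the 28 genes (points) with its 95% interval (bars), from edgeR with 4 libraries per sex; vertical lines part the mevalonate enzymes, the squalene and sterol enzymes, SREBP control, sterol handling and the liver X receptors. Every interval spans 0, and that of Idi1 is the widest, from -1.52 to 0.85.

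The enzymes of synthesis came lowest as a class. Of 16, 15 had a lower mean in males (12 to 15 of 16 when 1 library was left out), and the median log2 fold change was -0.15. The 9 enzymes from squalene onward were all lower, with a median of -0.17, and 6 of the 7 mevalonate enzymes were, with a median of -0.11. None of these differences passed. Leaving out Idi1, the 95% intervals of all 27 remaining genes lay between -0.55 and 0.45 on the log2 scale.

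Hmgcs1, the synthase that makes HMG-CoA (ENSMUSG00000093930, chromosome 13, 119690462 to 119708086), is a classical SREBP target. It stood at 127, 149.95, 155 and 132 CPM in Male 1 to 4, and 175, 186, 147 and 149 CPM in Female 1 to 4. Male 1 and Male 4 were the lowest libraries and Female 2 and Female 1 the highest, with Male 2 and Male 3 inside the female range. The means were 141 ± 13.7 CPM in males and 164 ± 19.3 CPM in females (SD, n = 4 each), and the log2 fold change was -0.22 ± 0.11 (SE; unadjusted p = 0.0787, adjusted p = 0.9995, edgeR).

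Cyp51, which demethylates lanosterol (ENSMUSG00000001467, chromosome 5, 4081145 to 4104746), had the smallest p of the 28. Its levels were 62.4, 69.8, 78.8 and 64.4 CPM in Male 1 to 4, and 81.6, 91.3, 75.1 and 72.5 CPM in Female 1 to 4. The same libraries were at the ends, Male 1 lowest and Female 2 highest, and Male 3 lay inside the female range. Its log2 fold change was -0.22 ± 0.11 (SE; unadjusted p = 0.0671, adjusted p = 0.9995, edgeR), with a 95% interval of -0.46 to 0.019.

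Sqle, the squalene epoxidase and a rate-limiting step after squalene (ENSMUSG00000022351, chromosome 15, 59315077 to 59331192), gave 63.7, 71.3, 81.2 and 63.95 CPM in Male 1 to 4, and 75.7, 92.4, 78.4 and 74.5 CPM in Female 1 to 4. Female 2 was again highest, and Male 3 exceeded the other 3 females. Its log2 fold change was -0.20 ± 0.11 (SE; unadjusted p = 0.103, adjusted p = 0.9995, edgeR). Msmo1 is an oxidase that takes part in the removal of methyl groups from the sterol ring (ENSMUSG00000031604, chromosome 8, 64718139 to 64733792). It gave 45.3, 50.1, 60.1 and 51.7 CPM in Male 1 to 4, and 62.6, 66.8, 50.8 and 53.4 CPM in Female 1 to 4. Female 2 was highest and Male 1 lowest, and its log2 fold change was -0.17 ± 0.12 (SE; unadjusted p = 0.177, adjusted p = 0.9995, edgeR).

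The other enzymes after squalene did not pass either. Sc5d, a desaturase of the last steps, averaged 23.03 ± 4.02 CPM in males and 26.7 ± 2.45 CPM in females (SD, n = 4 each), with a log2 fold change of -0.22 ± 0.14 (SE), and Male 2 alone was far down at 17.7 CPM. Fdft1, the squalene synthase, averaged 93.8 ± 13.2 CPM in males and 99.1 ± 11.5 CPM in females, a log2 fold change of -0.079 ± 0.12. Reads of Fdft1 may not be told from those of Ctsb, a cathepsin gene on the opposite strand that covers 26.8% of its exon bases, since no strand setting is given. Tm7sf2, a sterol reductase, averaged 13.3 ± 1.74 CPM in males and 14.96 ± 2.43 CPM in females, a log2 fold change of -0.17 ± 0.15, and shares 15.3% of its exon bases with Vps51 on the same strand. Hsd17b7, a ketosteroid reductase, ranged over 17.2 to 26.8 CPM in males and 20.9 to 30.7 CPM in females, with a log2 fold change of -0.14 ± 0.16. Dhcr7, the reductase that yields cholesterol itself, had nearly equal means, 34.4 ± 4.67 CPM in males and 34.5 ± 3.87 CPM in females, and Lss, which closes the rings of lanosterol, had 14.997 ± 2.58 CPM in males and 15.4 ± 2.51 CPM in females. Their log2 fold changes were -0.0080 ± 0.12 and -0.049 ± 0.16.

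Among mevalonate enzymes, Mvd, the decarboxylase that makes isopentenyl diphosphate, was the one synthesis gene with a higher mean in males. It averaged 68.8 ± 11.2 CPM in males and 65.03 ± 9.43 CPM in females (SD, n = 4 each), and its log2 fold change of 0.083 ± 0.14 (SE) was -0.037 without Male 2, its highest library. Fdps, which makes farnesyl diphosphate for sterols and for protein prenylation (ENSMUSG00000059743, chromosome 3, 89093588 to 89101959), gave 66.01, 109, 80.7 and 73.8 CPM in Male 1 to 4, and 103, 97.8, 96.2 and 68.9 CPM in Female 1 to 4. Male 2 was the highest of all and the other males lay among or below the females, and the log2 fold change was -0.15 ± 0.18. Acat2, the thiolase of the first step, gave 46.4, 69.8, 55.7 and 51.9 CPM in Male 1 to 4, and 66.4, 61.1, 61.1 and 53.6 CPM in Female 1 to 4. Male 2 was again the highest library and Male 1 the lowest, with a log2 fold change of -0.11 ± 0.13. Mvk, the mevalonate kinase, ranged over 30.4 to 37.9 CPM in males and 30.6 to 36.6 CPM in females, with a log2 fold change of -0.015 ± 0.10. Pmvk, the next kinase, gave 35.9, 53.9, 39.2 and 41.02 CPM in Male 1 to 4, and 48.9, 49.1, 47.1 and 35.8 CPM in Female 1 to 4. Male 2 was highest, Male 1 and Female 4 were lowest, and the log2 fold change was -0.088 ± 0.15. Fdps shares 26.7% of its exon bases with the predicted gene Gm43738, which averaged 2.38 counts a library.

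Idi1 stood apart from all others. It encodes the isomerase that turns isopentenyl diphosphate into its reactive partner (ENSMUSG00000058258, chromosome 13, 8885501 to 8892451). It gave 9.58, 2.33, 15.01 and 5.73 CPM in Male 1 to 4, and 5.76, 10.5, 6.73 and 17.4 CPM in Female 1 to 4. Levels were lowest in Male 2 (80 counts) and highest in Female 4 (953 counts), with high and low libraries in both sexes. The highest library was 7.48 times the lowest, against 1.25 to 2.07 times for the other 27 genes. Its coefficient of variation over the 8 libraries was 55.5%, above that of 95.3% of all genes tested. The log2 fold change of -0.33 ± 0.53 (SE) had a 95% interval of -1.52 to 0.85, wide enough to hold a large difference in either direction. No other annotated gene overlaps its exons.

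The 5 genes of SREBP control all had slightly lower means in males, and none passed. Their median log2 fold change was -0.042. Srebf2, the gene of the SREBP that mainly drives sterol synthesis (ENSMUSG00000022463, chromosome 15, 82147266 to 82205376), gave 148, 104, 149 and 125 CPM in Male 1 to 4, and 109, 139, 137 and 151 CPM in Female 1 to 4. Male 2 and Female 1 were low and the remaining 6 libraries lay between 125 and 151 CPM. Its log2 fold change was -0.026 ± 0.14 (SE). Srebf1, whose products also drive fatty acid synthesis, gave 49.6, 27.5, 46.5 and 40.02 CPM in Male 1 to 4, and 44.5, 45.3, 42.6 and 44.9 CPM in Female 1 to 4. The females lay close together and Male 2 was far below every other library. The log2 fold change of -0.12 ± 0.16 was 0.031 without Male 2.

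Scap, the escort of the SREBPs, gave 36.7, 22.6, 34.1 and 32.03 CPM in Male 1 to 4, and 29.1, 29.2, 32.9 and 38.8 CPM in Female 1 to 4. Male 2 was lowest and Female 4 highest. Insig2, which retains Scap and is not itself a strong SREBP target, gave 20.1, 10.1, 20.8 and 18.2 CPM in Male 1 to 4, and 16.4, 17.5, 15.9 and 20.1 CPM in Female 1 to 4. It too was lowest in Male 2, well below the next library, Female 3. Insig1, the retention protein that SREBP induces, gave 22.1, 37.9, 32.7 and 26.5 CPM in Male 1 to 4, and 30.02, 36.4, 28.1 and 28.1 CPM in Female 1 to 4. Here Male 2 was the highest library and Male 1 the lowest. The log2 fold changes of Scap, Insig2 and Insig1 were -0.054 ± 0.16, -0.018 ± 0.21 and -0.042 ± 0.17 (SE).

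No gene that moves, stores or exports sterol passed. The median log2 fold change of the 5 was -0.040, and it was 0.0032 without Female 1. Npc2, the lysosomal protein that hands cholesterol to Npc1 (ENSMUSG00000021242, chromosome 12, 84754560 to 84773112), gave 155, 225, 155 and 167 CPM in Male 1 to 4, and 191, 188, 183 and 154 CPM in Female 1 to 4. Male 2 was highest and Female 4 lowest. Npc1, which exports cholesterol from lysosomes, ranged over 30.6 to 37.2 CPM in males and 27.9 to 37.01 CPM in females, and was the one handling gene with a higher mean in males, at 0.10 ± 0.11 (SE). Stard4, a cytosolic sterol carrier and SREBP target, ranged over 17.5 to 27.95 CPM in males and 20.4 to 24.8 CPM in females. Soat1, which esterifies cholesterol for storage, ranged over 51.96 to 68.7 CPM in males and 59.96 to 68.9 CPM in females, and Abca1, the exporter of cholesterol to apolipoproteins, over 5.21 to 7.37 CPM in males and 6.07 to 9.02 CPM in females. Log2 fold changes of Npc2, Stard4, Soat1 and Abca1 were -0.030 ± 0.14, -0.040 ± 0.14, -0.088 ± 0.10 and -0.13 ± 0.16. Both liver X receptors had slightly higher means in males. Nr1h2, the receptor found in most tissues, averaged 45.2 ± 3.83 CPM in males and 43.3 ± 5.44 CPM in females, and Nr1h3, abundant in liver and macrophages, averaged 7.51 ± 1.37 CPM in males and 7.36 ± 1.25 CPM in females (SD, n = 4 each), with log2 fold changes of 0.063 ± 0.11 and 0.038 ± 0.17.

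Synthesis was also set against handling within each library. The mean of log2(CPM + 1) over the 16 synthesis enzymes, as a deviation from the mean of 8 libraries, was -0.14, -0.082, 0.085 and -0.13 in Male 1 to 4, and 0.049, 0.21, -0.013 and 0.023 in Female 1 to 4. Female 2 was highest and Male 1 and Male 4 lowest, with Male 3 above 3 of the females. For the 5 handling genes the deviations were -0.0031, -0.090, -0.012 and 0.027 in Male 1 to 4, and 0.042, 0.077, -0.044 and 0.0032 in Female 1 to 4, and they were farther from 0 than those of synthesis in Male 2 and Female 3 and nearer to it in the other libraries. The synthesis mean minus the handling mean was 0.059, 0.20, 0.29 and 0.040 in Male 1 to 4, and 0.20, 0.33, 0.23 and 0.22 in Female 1 to 4. It averaged 0.15 ± 0.12 in males and 0.24 ± 0.057 in females (SD, n = 4 each), and the groups overlapped. CPM is not corrected for length, so only differences between libraries, not the sign of this value, can be read.

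**Figure D2:**
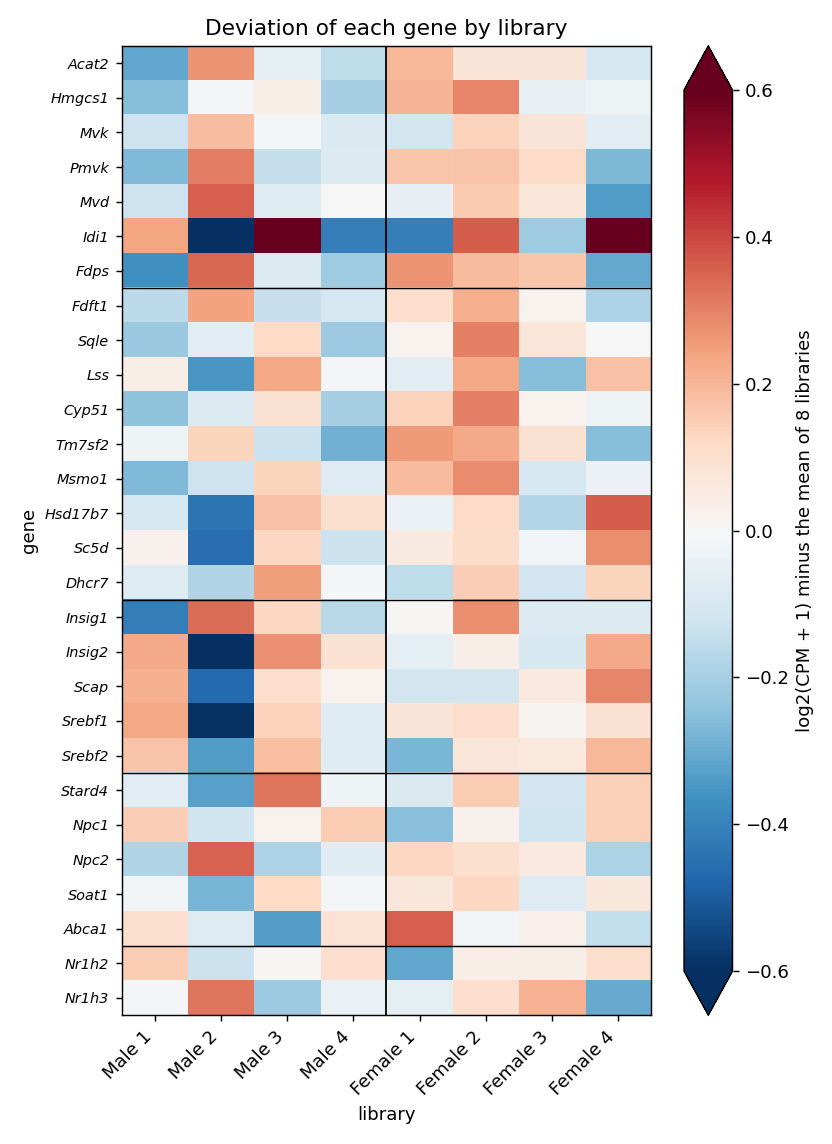
Deviation of log2(CPM + 1) from the mean of 8 libraries for each gene (rows) and library (columns, males left of females), on a colour scale cut at -0.6 and 0.6. The 4 genes Hmgcs1, Sqle, Cyp51 and Msmo1 are highest in Female 2, while Male 2 and Female 4 carry opposite signs for 23 of the 28 genes. The share of all genes with opposite signs is not given.

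Further genes of the same pathways gave no call either. Of 41 genes in 6 lists, 0 were called, against 0.0366% of all genes tested. At an unadjusted p below 0.05 there were again 0, against 2.24% of all genes. Both counts are near those shares and are not a result about these genes. Lower in males were 24 of the 41 (58.5%), against 47.1% of all genes tested. The median log2 fold change of the 41 was -0.016. Of 6 further synthesis genes 5 were lower in males. Of 6 genes of SREBP processing and turnover 4 were lower, and Vcp, the ATPase that pulls proteins from the endoplasmic reticulum for degradation, averaged 828 ± 109 CPM in males and 833 ± 41.7 CPM in females (SD, n = 4 each). Of 12 genes of sterol uptake, transport and efflux 6 were lower and 6 higher, and Tmem97, a sterol-binding membrane protein, averaged 94.7 ± 16.7 CPM in males and 86.7 ± 10.999 CPM in females. Of 5 partners and targets of the liver X receptors 2 were lower, and Rxrb, a dimer partner, averaged 51.2 ± 2.56 CPM in males and 50.2 ± 3.68 CPM in females. Of 8 fatty acid genes driven by SREBP 5 were lower, and Scd2, a fatty acid desaturase, averaged 397 ± 11.6 CPM in males and 424 ± 33.7 CPM in females, a log2 fold change of -0.094 ± 0.092. Of 4 oxysterol enzymes 2 were lower, and Cyp46a1, a cholesterol hydroxylase best known from the brain, averaged 8.60 ± 1.27 CPM in males and 7.14 ± 0.713 CPM in females, a log2 fold change of 0.27 ± 0.14.

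Levels of different genes were compared per length, as CPM per kilobase of the gene length in the deposited tables (RPKM). Npc2 was the highest of the 28, at 54.4 ± 7.59 RPKM (mean and SD of 8 libraries), and Abca1 the lowest, at 0.665 ± 0.108. Among synthesis enzymes Hmgcs1 (47.1 ± 6.12 RPKM), Mvd (36.004 ± 5.27) and Fdft1 (33.7 ± 4.13) were highest, and Lss (1.41 ± 0.220) and Idi1 (2.61 ± 1.45) lowest. The middle of the order held Pmvk (25.6 ± 3.95), Acat2 (22.9 ± 3.07), Fdps (20.7 ± 3.94), Cyp51 (16.9 ± 2.14), Sqle (13.6 ± 1.69), Mvk (12.4 ± 1.07) and Msmo1 (8.97 ± 1.18), and many of these neighbours lay within each other's spread. Enzymes of the closing steps were lower, with Dhcr7 at 5.93 ± 0.683, Sc5d at 5.11 ± 0.750, Hsd17b7 at 4.70 ± 0.809 and Tm7sf2 at 4.05 ± 0.620 RPKM. Among regulators, Srebf2 (26.6 ± 3.68 RPKM) stood above Insig1 (9.78 ± 1.69), Srebf1 (7.57 ± 1.19), Insig2 (5.01 ± 0.998) and Scap (4.29 ± 0.679). Nr1h2 (13.2 ± 1.34 RPKM) stood above Nr1h3 (2.96 ± 0.483). Of handling genes below Npc2, Soat1 had 6.48 ± 0.571, Stard4 4.01 ± 0.581 and Npc1 3.13 ± 0.330 RPKM. The order depends on the length used: the deposited length joins the exons of all transcripts, and with the principal transcript of GENCODE M21 Fdps became the highest (62.9) and Msmo1 reached 26.96 RPKM, while Lss (3.26), Idi1 (3.02) and Abca1 (0.671) stayed at the bottom.

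**Figure D3:**
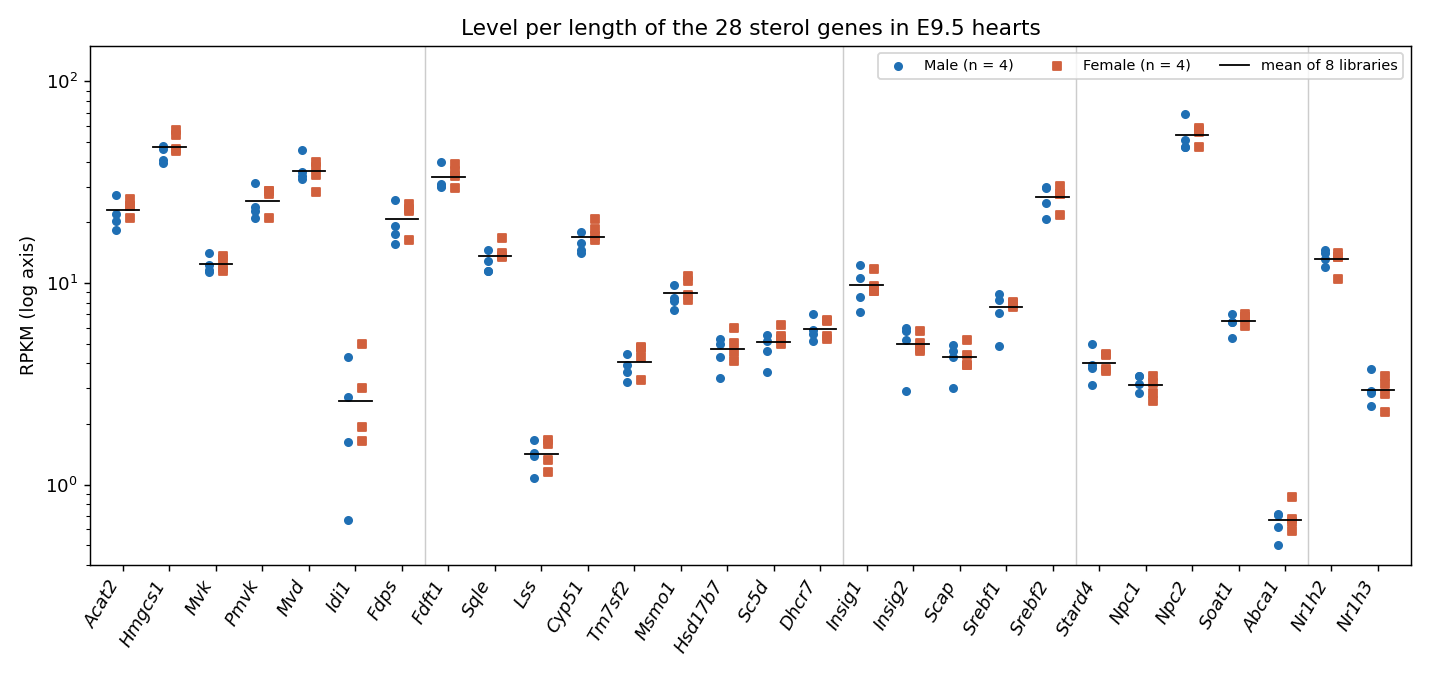
RPKM (log axis) of the 28 genes in each library, males as circles left of females as squares, with the mean of 8 libraries as a bar. Npc2 and Hmgcs1 are highest and Abca1 lowest, and the points of Idi1 spread from 0.664 to 4.97 RPKM.

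Over all 8 libraries as one set, groups of genes were high and low in the same libraries. Pearson's r of log2(CPM + 1) was computed for all 378 pairs, with exact 2-sided permutation p-values adjusted over the pairs by the Benjamini-Hochberg method. Of the 378 pairs, 44 had an adjusted p below 0.05, 33 with a positive and 11 with a negative r, and 17 did so by Spearman's rho. No like share of all pairs of genes tested is given for these counts. Over the 378 pairs, r was above 0.9 in 4.50% and below -0.9 in 1.06%. The shares of all pairs of genes tested were 2.92% and 2.86%. Within the 16 synthesis enzymes the median r was 0.398 over 120 pairs, against 0.00070 over all pairs of genes tested. It was 0.063 between synthesis and handling genes (80 pairs). An r above 0.9 was found in 10 of the 120 synthesis pairs (8.33%), against 2.92% of all pairs of genes. Strong correlations in both directions were common in these 8 libraries: over all pairs of genes, the 5th and 95th percentiles of r were -0.857 and 0.857. A low permutation p thus does not show that an r is unusual among genes in these libraries. The median within synthesis was 0.28 without Female 2, 0.43 without Female 4, 0.46 without Male 2 and 0.37 on deviations from the mean of each sex. That between synthesis and handling was 0.259 without Male 2.

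**Figure D4:**
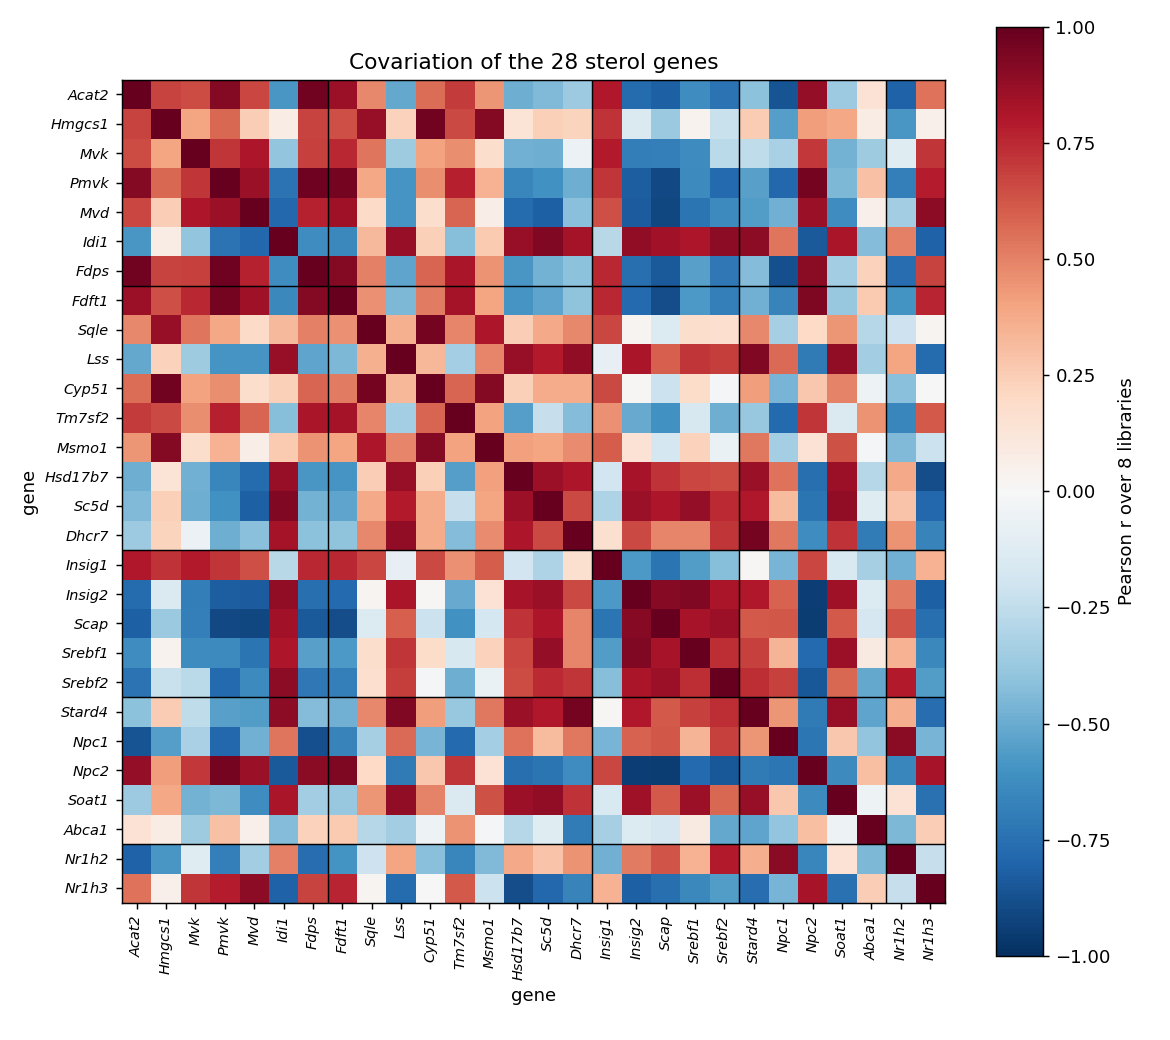
Pearson's r over 8 libraries for each pair of the 28 genes, ordered by class, with black lines between classes. Red blocks join Acat2, Pmvk, Fdps, Fdft1 and Npc2, and join Hmgcs1, Sqle, Cyp51 and Msmo1, while blue marks the negative r of Npc2 and Pmvk with Scap.

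The 5 highest r joined synthesis enzymes with each other or with a sterol carrier. They were Pmvk with Fdps (r = 0.972, adjusted exact permutation p = 0.0173), Hmgcs1 with Cyp51 (r = 0.963, adjusted exact permutation p = 0.0164), and Acat2 with Fdps (r = 0.962, adjusted exact permutation p = 0.0164). Dhcr7 went with Stard4 (r = 0.959, adjusted exact permutation p = 0.0164) and Pmvk with Npc2 (r = 0.959, adjusted exact permutation p = 0.0164). Unadjusted, their exact permutation p ran from 9.92e-05 to 0.000595. Spearman's rho ran from 0.905 to 0.976 (exact permutation p = 0.000397 to 0.00456, adjusted 0.0375 to 0.0719). All 5 held without the pair of libraries farthest from the median of the gene named first (r = 0.896 to 0.972). Libraries far out only in the other gene stayed in. The 5 pairs also held without Male 2 (0.951 to 0.981) and on deviations from the mean of each sex (0.938 to 0.974).

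The 5 lowest r set Scap or Insig2 against other members. They were Scap with Npc2 (r = -0.946), Insig2 with Npc2 (-0.938), Mvd with Scap (-0.909), Pmvk with Scap (-0.903) and Fdft1 with Scap (-0.886). Their exact permutation p ran from 0.000322 to 0.00280, and from 0.0164 to 0.0424 after adjustment. Spearman's rho ran from -0.952 to -0.833 (exact permutation p = 0.00114 to 0.0154, adjusted 0.0392 to 0.126). Without the pair of libraries farthest from the median of the gene named first, r ran from -0.923 to -0.635. Without Male 2 it ran from -0.933 to -0.811. On deviations from the mean of each sex r ran from -0.981 to -0.908. Libraries with more Npc2, Mvd, Pmvk and Fdft1 had less Scap, and those with more Npc2 had less Insig2.

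A block of 4 SREBP targets, Hmgcs1, Sqle, Cyp51 and Msmo1, was picked out after its values were seen and is given as a description. Their 6 pairs had r of 0.812 to 0.963, and 0.745 to 0.938 on deviations from the mean of each sex. Without the pair of libraries farthest from the median of each pair's first-listed gene, r was 0.482 to 0.896. Part of it thus rests on the libraries at the ends. All 4 genes were highest in Female 2 and lowest in Male 1. Insig1, outside the block, had r of 0.60 to 0.72 with them, which did not pass (exact permutation p = 0.0413 to 0.114, adjusted 0.136 to 0.241). Without Male 2, the highest library of Insig1, r was 0.89 to 0.94. Without the pair of libraries farthest from the median of the block gene, it was 0.17 to 0.53. With Acat2 and Mvk the r of Insig1 was 0.80, so the block is not shown to be closed. Hmgcs1 and Msmo1 hold the core shown in their promoters above, Cyp51 does not in this window, and Sqle had no promoter to search. Other forms of sterol element were not searched, so Cyp51 is not shown to lack one. No correlation of Srebf2 with this block was detected: its r was -0.23 with Hmgcs1, -0.011 with Cyp51, -0.068 with Msmo1 and 0.17 with Sqle (exact permutation p = 0.595 to 0.978). Messenger RNA does not show how much SREBP was cleaved.

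Nor was one detected between Idi1 and the block. Its r was 0.074 with Hmgcs1, 0.24 with Cyp51, 0.26 with Msmo1 and 0.33 with Sqle (exact permutation p = 0.434 to 0.857). Its highest r were with Sc5d (r = 0.93), Stard4 (0.90), Srebf2 (0.89), Insig2 (0.88) and Lss (0.87), with adjusted exact permutation p of 0.0173 to 0.0479. Spearman's rho of these 5 was 0.690 to 0.952 (exact permutation p = 0.00114 to 0.0694, adjusted 0.0392 to 0.236), and by rho Srebf2 and Sc5d passed while Stard4, Insig2 and Lss did not. Without the pair of libraries farthest from the median of Idi1, r was 0.729 to 0.859. Against Npc2 its r was -0.84 (exact permutation p = 0.0104, adjusted 0.0675), which did not pass. Over all pairs of genes tested the 5th and 95th percentiles of r were -0.857 and 0.857, so r near these values was not rare.

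A pair of libraries marked the ends of this pattern. Male 2 was the highest library for 9 of the 28 genes and the lowest for 11, and Female 4 was the highest for 5 and the lowest for 5. Their deviations had opposite signs for 23 of the 28 genes, and the same sign for Hmgcs1, Sqle, Cyp51, Msmo1 and Abca1. No share over all genes tested is given for these counts, so they cannot be read as a trait of the sterol genes. The genes highest in Male 2 were Acat2, Mvk, Pmvk, Mvd, Fdps, Fdft1, Insig1, Npc2 and Nr1h3. The genes split largely by length: the 10 genes above their own mean in Male 2 were 1713 to 4208 bases long, and the 18 below it 3233 to 10787 bases. As a description across the 28 genes, Spearman's rho of length with the deviation was -0.61 in Male 2, -0.58 in Female 3 and 0.56 in Female 4. Across all genes tested it was -0.21, -0.28 and 0.32 in the same libraries. In Male 1, Male 3 and Male 4 it was 0.41, 0.45 and 0.36 across the 28 genes. Across all genes tested it was 0.22, 0.22 and -0.0068 there. In Female 1 and Female 2 it was -0.14 and -0.15 across the 28 genes, and -0.13 and -0.098 across all. Subtracting each library's length trend over all genes, a choice made after seeing the data, left the median r within synthesis at 0.433 and that of the 4 targets at 0.936. Between synthesis and handling genes the median was then 0.153, and between synthesis and SREBP control -0.189, against 0.063 and 0.000066 before. The trend was taken over all genes, not the 28, so a dependence on length among the 28 may remain. Idi1 and Insig2 lay far below other genes of their length in Male 2. Some summed cell type markers moved with the same libraries. Those of cardiomyocytes were highest in Male 2 (54299 CPM) and lowest in Female 4 (32567 CPM). Those of endocardium and endothelium were lowest in Male 2 (279 CPM) and highest in Female 4 (398 CPM). Of single markers, Actc1 and Emcn did not follow, while the rest of both lists did. Actc1 deviated by -0.058 in Male 2 and 0.0058 in Female 4, and Emcn by 0.13 in both libraries. Foregut markers were highest in Male 2 (344 CPM), with 149.9 CPM in Female 4 and the lowest sum, 146 CPM, in Male 3. Those of liver and yolk sac stood at 35.1 CPM in Male 2, below 75.6 CPM in Female 1, and were lowest in Female 4 (2.49 CPM). Erythroid, macrophage and neural tube markers had their ends in other libraries. Male 2 and Female 4 also stood apart over all genes, and the split is not shown to be particular to the sterol genes. The part of these cell types in it was not tested.

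**Figure D5:**
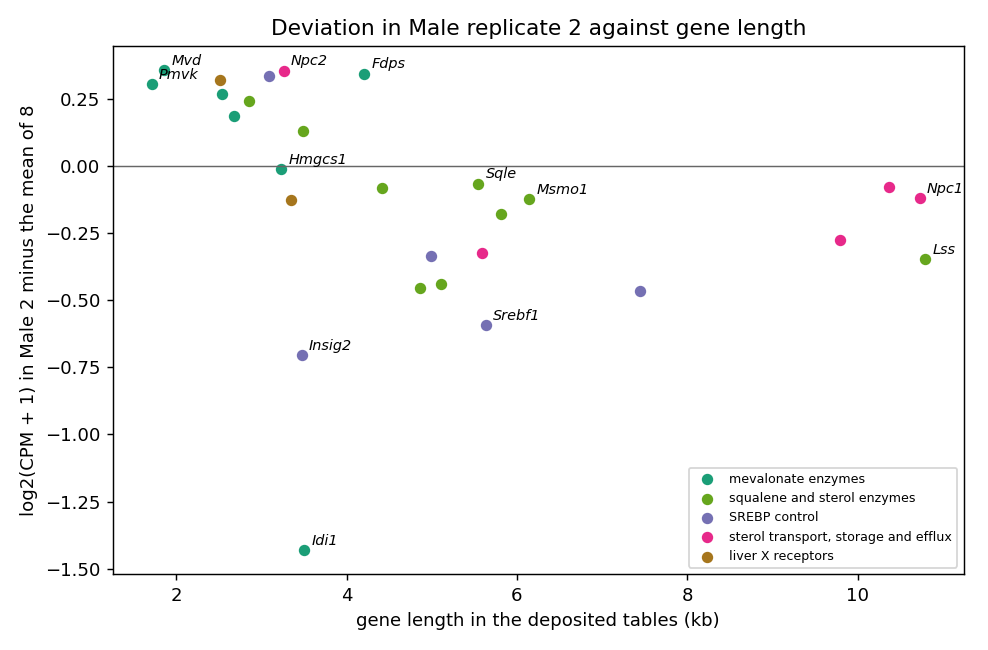
Deviation of log2(CPM + 1) in Male 2 from the mean of 8 libraries against the gene length of the deposited tables in kilobases, 1 point per gene, coloured by class. Short genes such as Mvd, Pmvk and Npc2 lie above 0, genes over 4208 bases below it, and Idi1 lies lowest at -1.43.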

How the data were processed

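RNA of 4 Male and 4 Female libraries of embryonic hearts was analysed, grouped by the sex in the labels. The deposited counts are whole numbers per gene and were not normalized; per the submitters' processing notes the authors used GRCm38 (mm10), Trimmomatic 0.36 for trimming, STAR 2.5.2b as the aligner and featureCounts (Subread 1.5.2) for counting. Strand setting, annotation release and the treatment of shared reads are not stated there. A deposited normalized signal, counts divided by 1 factor per library, served only as an alternative. Genes were filtered with filterByExpr (minimum count 10), scaled with TMM factors and tested for Male minus Female with edgeR 4.0.16 (robust quasi-likelihood test, 2-sided, Benjamini-Hochberg adjustment over 16377 genes), in R 4.3.3; the fit was tested on simulated data. Alternatives were DESeq2 1.42.0, limma-voom (limma 3.58.1), limma on log2 of the deposited signal plus 1, other factors and filters, the replicate number as a block, and leaving out libraries. Correlations used log2(CPM + 1) and all 40320 orders of 8 libraries, in Python 3.11.15. The members and lists were chosen with earlier results of these data known. All 28 members are named; of each further list, its called genes and the one with the highest mean CPM, of which that of the further synthesis genes is not reported here; of the pairs, the 5 highest and 5 lowest r.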

Additional observations from a re-analysis of the deposited data

Results flagged for a closer look

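In each sex, the highest and the lowest of 4 libraries were set against the other 3 by their gap relative to the range. This was done for every gene and for some, not all, of the class means (62 sets). The gap passed Dixon's 95% critical value in 2 sets, where chance flags about 5% of sets. Fdft1, the squalene synthase, was at 113 CPM in Male 2, against 85.9 to 88.8 CPM in the other males. Pmvk, the phosphomevalonate kinase, was at 35.8 CPM in Female 4, against 47.1 to 49.1 CPM in the other females.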

How the results depend on the processing

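In each of the 17 alternatives, 0 of 28 genes were called, against 5 to 9 of all genes tested. At an unadjusted p below 0.05 there were 0 to 3 of 28, the highest count without Male 2 (Acat2, Fdps and Hmgcs1). No like share of all genes is given, so these counts cannot be read as a trait of the sterol genes. The median log2 fold change of the synthesis enzymes stayed below 0 in every alternative (-0.17 to -0.089 when 1 library was left out, -0.18 with library size alone). That of the handling genes did not: it ran from -0.084 to 0.0032 when 1 library was left out and was 0.0094 without Female 1 and Male 2. Directions of single genes are weakly held: 44 of 476 alternative values had the opposite sign, and the cause was not tested. Leaving out 1 library, log2 fold changes ran over -0.20 to 0.0032 for Abca1, -0.10 to 0.048 for Dhcr7, -0.80 to 0.071 for Idi1, -0.18 to 0.077 for Insig1, -0.12 to 0.17 for Insig2, -0.14 to 0.051 for Lss, -0.037 to 0.15 for Mvd, -0.088 to 0.031 for Mvk, -0.17 to 0.026 for Npc2, -0.019 to 0.12 for Nr1h2, -0.088 to 0.12 for Nr1h3, -0.14 to 0.075 for Scap, -0.22 to 0.031 for Srebf1, -0.11 to 0.070 for Srebf2 and -0.17 to 0.054 for Stard4. Without Female 1 and Male 2 together, the opposite signs were -0.046 for Mvd, 0.0090 for Lss, 0.13 for Insig2, 0.022 for Scap, 0.030 for Srebf1, 0.0094 for Stard4, 0.015 for Abca1 and -0.10 for Nr1h3. With library size alone Nr1h3 was at -0.0045, and with the filter of 1 CPM in 4 libraries Dhcr7 was at 0.0011.

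The median r within synthesis ran from 0.28 to 0.46 when 1 library was left out, and was 0.59 without Female 1 and Male 2. The median level of the synthesis enzymes was 12.996 RPKM, and 22.97 RPKM with the principal transcript length, an alternative chosen after seeing the data, whose shorter lengths raise it. With 4 libraries a sex, differences within the printed intervals cannot be told from 0.

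Replicate numbers are shared by the sexes in the labels, but same-numbered libraries did not deviate together (r = -0.49, 0.019, -0.41 and 0.15 for numbers 1 to 4). With the replicate number as a block, 5 of all genes and 0 of 28 were called, and the synthesis median was -0.15.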
